A study of Mus musculus with 3 samples.

Results

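The TGF-beta ligands, receptors and binding proteins described here are 10 listed genes: the ligand genes Tgfb1, Tgfb2 and Tgfb3, the activin subunit gene Inhba, the receptor genes Tgfbr1, Tgfbr2 and Tgfbr3, and the latent TGF-beta binding protein genes Ltbp1, Ltbp2 and Ltbp4. They were taken by name from the 22100 genes of the count tables, and each of the 10 had unique molecular identifiers (UMIs, 1 per captured transcript molecule) in each of the 3 libraries, in which 20234, 20769 and 20148 genes had any. Small intestine came from wild-type, untreated mice at 2 embryonic stages, E15.5 and E17.5 (days counted from the morning of the vaginal plug), and at postnatal day 7 (P7), with 1 Chromium 3′ v2 single-cell library per stage, in a study of the cellular basis of gut elongation. The sort kept viable cells that were either Epcam+ or negative for Epcam, CD31 and CD45, so it set the share of epithelial cells and removed most endothelial and blood cells. Strain, sex and number of animals per library are not given in the sources used here. With 1 library per stage no test between stages exists: levels are CPM, a gene's UMIs for each 1000000 UMIs of its cell class. The 95% intervals cover counting error alone, not differences between animals or sorts.

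TGF-beta proteins are secreted in a latent form, in which the propeptide stays wrapped around the ligand. LTBP1 and LTBP4 are large matrix proteins that bind this latent complex and tether it to fibrillin microfibrils, while LTBP2 sits on microfibrils and elastic fibres without binding latent TGF-beta. Once released, the ligand binds TGFBR2, which recruits and activates TGFBR1, and TGFBR3 (betaglycan) is a co-receptor that presents TGF-beta 2 in particular. Inhba encodes the subunit of activin A, which signals through activin receptors to the same SMAD proteins.

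Promoter sequences, the 100 bases before the RefSeq start (GRCm38.p6), are shown for 3 members as 1 example of each motif searched, given in capitals: Tgfb2 for the TATA box, Ltbp1 for the cAMP response element and Tgfb1 for the GC box. In the GENCODE annotation of the same build, Tgfb2 (ENSMUSG00000039239) spans chr1:186622792-186705989 (minus strand), Ltbp1 chr17:75005568-75392512 (plus strand) and Tgfb1 (ENSMUSG00000002603) chr7:25687002-25705077 (plus strand). The Tgfb2 window, chr1:186705990-186706089 on the minus strand, held TATAAA 31 to 26 bases before the start:
Tgfb2: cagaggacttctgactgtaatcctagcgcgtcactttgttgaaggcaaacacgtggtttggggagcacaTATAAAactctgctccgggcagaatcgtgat
The Ltbp1 window, chr17:75005429-75005528 on the plus strand, whose RefSeq start lies 39 bases before the GENCODE start, held the palindrome TGACGTCA, the full cAMP response element:
Ltbp1: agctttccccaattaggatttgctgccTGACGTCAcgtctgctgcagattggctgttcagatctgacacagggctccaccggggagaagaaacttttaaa
The Tgfb1 window, chr7:25686902-25687001 on the plus strand, held 3 GC boxes (CCGCCC, or GGGCGG on the other strand):
Tgfb1: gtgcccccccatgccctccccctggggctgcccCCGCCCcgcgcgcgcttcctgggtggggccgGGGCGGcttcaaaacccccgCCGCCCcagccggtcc
Over 32851 such windows, with both strands read, TATAAA or TTTATA was in 5.56%, TGACGTCA in 1.15% and CCGCCC or GGGCGG in 24.7%. A promoter entry was found for 8 of the 10 members. TATAAA was in 2 of the 8 (Tgfb2 and Inhba), TGACGTCA in Ltbp1 alone, and a GC box in 4 (Tgfb1, Tgfbr1, Ltbp2 and Ltbp4), while the Tgfbr2 window held none of these letters. These matches describe the letters and are not evidence of binding.

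Cells were assigned to classes by marker genes that include none of the 10 members, at a common depth of 2500 UMIs per cell. The 107, 575 and 275 cells below that depth were left without a class. The libraries held 8447, 11598 and 8391 cells with median depths of 8503, 6262.5 and 14014 UMIs. The gate is a cut on a score, so a class is a range of cells rather than a type. Next to the cut lay 54.1%, 51.6% and 29% of the glial-like cells. So did 77.5% and 70.6% of the embryonic cells like interstitial cells of Cajal (the gut's pacemaker cells) and 46% and 39.7% of the embryonic pericyte-like cells. The share was at most 9.98% in the neuronal-like, fibroblast-like, epithelial-like and muscle-like cells. These shares leave out the further cut that splits fibroblast-like and muscle-like cells into sets. With 1 more marker and a wider lead, adventitial fibroblast-like cells fell from 199 to 23 at E17.5 and from 227 to 100 at P7. Subepithelial fibroblast-like cells fell from 762 to 370 at E15.5, from 602 to 341 at E17.5 and from 30 to 11 at P7. Summed over the class, glial-like cells had UMIs of 9 of 9 glial markers at each stage, which largely follows from the gate on these markers. Fabp7 led at 2195, 2017 and 2928 CPM. Muscle-like cells at P7 split into a visceral set (gated by Actg2 and Des among others) and an elastin-rich set. The latter was gated by Eln, the elastin gene, Notch3, Mgp, Gucy1a1 and Rgs5. In its main cluster Eln and Notch3 were at 8206 and 441 CPM, against 87.3 and 1.68 CPM in the main visceral cluster. Rgs5 and Mgp went the other way, at 171 and 68.9 against 859 and 302 CPM. Of 78 named clusters, 13 had more markers of another class than of their own among their 10 leading genes, 4 of them led by haemoglobin. Leaving out the 3345 cells of those 13 moved the count of members called by over 1.5 times in 1 of 25 comparisons. No barcode overlap between libraries could be counted.

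Tgfb2 had its highest level in glial-like cells, the support cells of the enteric nervous system. There it was at 609 CPM (566 to 655, 148 cells) at E15.5, 911 CPM (878 to 945, 535 cells) 2 days later, at E17.5, and 880 CPM (710 to 1080, 31 cells) at P7. Neuronal-like cells, the other lineage of the enteric nervous system, were next at the embryonic stages, with 65.8 CPM (60.2 to 71.7), 124 CPM (117 to 132) and 58.9 CPM (49.4 to 69.6) in the same order. Epithelial-like cells had 1.52, 4.46 and 0.725 CPM. The glial-like intervals lay above those of every other class of 30 or more cells at each stage.

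The glial-like excess of Tgfb2 over neuronal-like cells was, on the log2 scale, 3.21 (3.05 to 3.38) in the E15.5 library, 2.88 (2.77 to 2.98) in the E17.5 library and 3.90 (3.50 to 4.29) in the P7 library. It was in most glial-like cells: at 2500 UMIs per cell, 79.7%, 85.4% and 80.6% had a Tgfb2 UMI, against 14.8%, 24.1% and 16.3% of neuronal-like and 0.53%, 0.923% and 0.269% of epithelial-like cells. Without thinning the shares were 98%, 96.3% and 80.6% in glial-like and 39.2%, 49.7% and 44.2% in neuronal-like cells, whose median depths were 7404, 5427 and 3239 UMIs and 9296, 7752 and 12826 UMIs. A ratio is called here when it is at least 1.5-fold with an interval that excludes 0, among genes with 30 or more UMIs over both groups.

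By that rule 3 of 6 comparable members were called between glial-like and neuronal-like cells at E15.5, beside 46% of all genes, and all 3 were higher in glial-like cells. At E17.5, 4 of 6 were higher, beside 20.5%, and at P7 2 of 4, beside 12.1%. None was lower at any stage, beside 30.5%, 28.7% and 15% of all genes. The median over the comparable members was 1.89, 1.84 and 1.74, against -0.23, -0.05 and -0.04 over all genes compared. Ltbp1, which stores latent ligand, reached 144 CPM (124 to 168), then 142 CPM (129 to 156), then 306 CPM (209 to 432) in glial-like cells of the 3 stages. In neuronal-like cells it was at 3.93, 9.68 and 3.87 CPM, so that the log2 differences were 5.20 (4.64 to 5.80), 3.87 (3.53 to 4.23) and 6.31 (5.21 to 7.56). Tgfbr2, the ligand-binding receptor, was at 23.1, 33.6 and 134 CPM in glial-like cells, the last from 14 UMIs, against 0.634, 4.25 and 1.29 CPM in neuronal-like cells. Its log2 difference was 5.19 (3.80 to 6.92) and then 2.98 (2.42 to 3.57) before birth. Tgfbr1, the signalling receptor, was at like levels in both: the log2 difference was 0.12 (-0.35 to 0.57) and then 0.01 (-0.36 to 0.37) before birth. Glial-like cells thus had higher levels of a ligand, a store and one receptor gene, with the other receptor gene at a difference whose interval spanned 0. Inhba and Ltbp2 had 0 UMIs in glial-like cells of each stage, where 3 UMIs would be 2.48, 0.942 and 28.7 CPM.

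**Figure D1:**
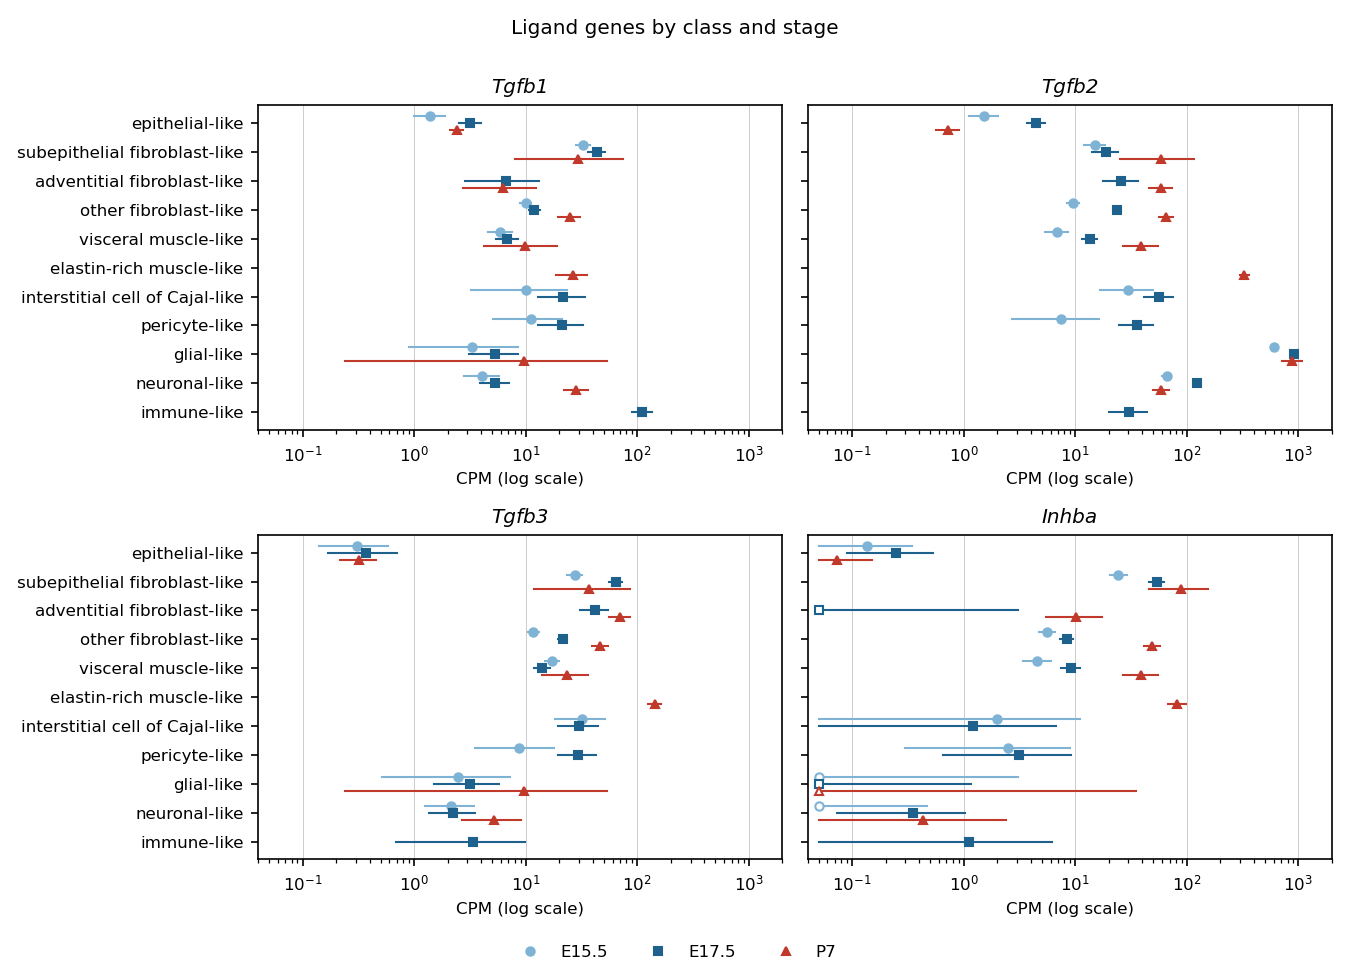
Levels of the 4 ligand genes (CPM, log axis) by cell class, with circles for E15.5, squares for E17.5 and triangles for P7. Lines are 95% Poisson intervals, hollow marks at the left edge are classes with 0 UMIs, and classes under 30 cells are not drawn. Among the classes drawn, Tgfb2 is highest in glial-like cells (609, 911 and 880 CPM) and next, at P7, in elastin-rich muscle-like cells (329 CPM).

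In the E15.5 and E17.5 libraries glial-like cells were 1.80% and 4.80% of cells and held 27.8% (26.1 to 29.6) and 39.5% (38.4 to 40.7) of all Tgfb2 UMIs. A further 32.4% and 30.4% were in the 552 and 1308 cells without a class. At P7 glial-like cells held 6.82% (5.53 to 8.30) of the Tgfb2 UMIs, neuronal-like cells 10.2% and other fibroblast-like cells 15.4%, and elastin-rich muscle-like cells, described below, held more than any of these. The class of other fibroblast-like cells, at 65.2 CPM, was uneven. A P7 cluster of 87 cells, whose gated cells were all fibroblast-like, had Tgfb2 at 369 CPM. All 461 cells of the cluster that held most elastin-rich cells had 293 CPM. Of the embryonic cells without a class, 178 and 429 lay in clusters whose gated cells were mostly glial-like, with Tgfb2 at 536 and 751 CPM. Where clusters were named in place of cells, glial-like Tgfb2 was 455, 805 and 882 CPM, and the log2 excess over neuronal-like clusters was 3.33, 2.66 and 3.92. The E17.5 over E15.5 ratio of glial-like Tgfb2, 0.58 (0.46 to 0.70), fell just short of 1.5-fold, and the P7 over E17.5 ratio was -0.05 (-0.37 to 0.25). None of the 5 comparable members was called between E15.5 and E17.5 in glial-like cells, beside 10.3% of genes higher and 4.83% lower. The count was 3 with clusters, 2 with the stricter gate, 2 with median-ratio scaling and 1 without the clusters led by another class's markers. At P7, Tgfbr2, Ltbp1 and Ltbp4 of 5 were called higher than at E17.5, beside 11.6%, and none lower, beside 3.89%. The 16 dissociation and stress genes were all higher in glial-like cells at E17.5 than at E15.5 (median log2 3.25), and all 16 were higher than in neuronal-like cells at E17.5 (median 2.18). At P7 the summed fibroblast markers in glial-like cells were 1387 CPM, against 225 and 297 CPM before birth, with Pdgfra at 0. Their part in these results was not tested, and the glial-like excess of Tgfb2 was 3.21 at E15.5, where 4 of 16 stress genes were higher and 2 lower.

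The pathway around these members also differed between the enteric lineages at E17.5, where 20.5% of all genes were higher in glial-like cells and 28.7% lower. Of 8 genes for ligand activation and storage, 5 were higher in glial-like than in neuronal-like cells and none lower. Among them were the integrin subunit genes Itgav (61.2 against 9.09 CPM, log2 2.75) and Itgb8 (27.0 against 6.73 CPM, log2 2.00), whose product alpha-v beta-8 releases latent TGF-beta. Of 14 genes known to respond to TGF-beta, 7 were higher and 4 lower, with Ccn2 highest at log2 5.20 (634 against 17.2 CPM) and Tgfbi lowest at -1.84. Pmepa1, a feedback inhibitor that binds SMADs, was at 376, 968 and 1301 CPM in glial-like cells and at 66.9, 94.7 and 83.0 CPM in neuronal-like cells. Of the microfibril and elastic fibre genes 4 of 8 were higher and 1 lower, led by Fbn2, a microfibril protein (92.0 against 11.2 CPM). The SMAD list gave 3 higher and 1 lower of 12, the other receptors 2 and 2 of 5, the activin list 1 and 1 of 5 and the matrix proteoglycans 0 higher and 3 lower of 4.

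**Figure D2:**
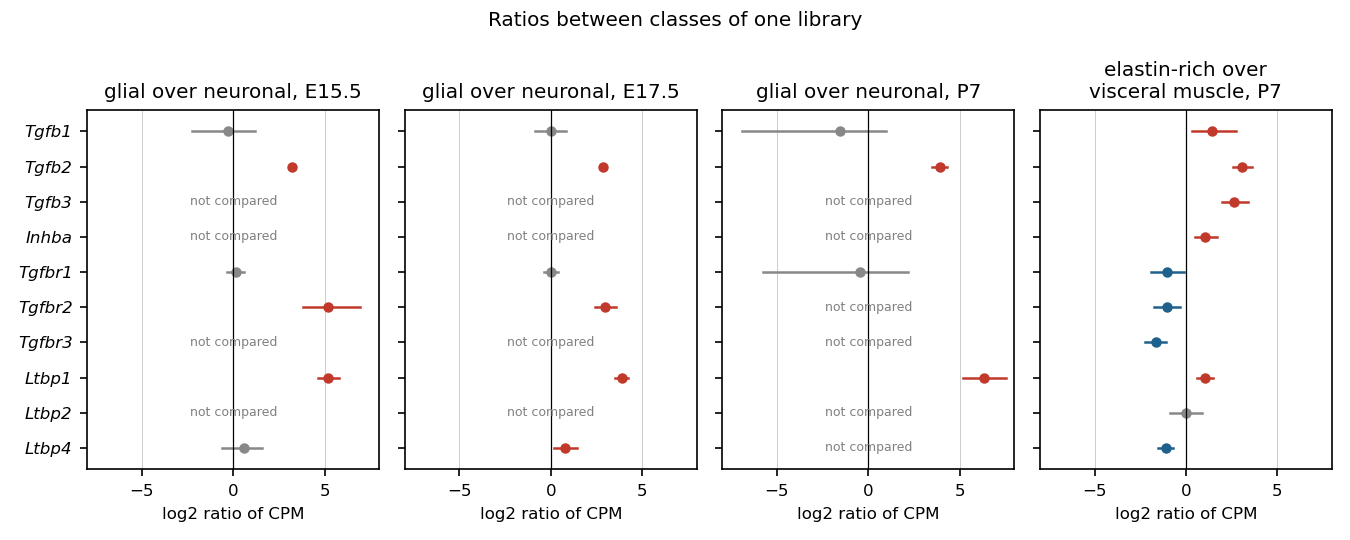
Log2 ratios of CPM for the 10 members between glial-like and neuronal-like cells at each stage, and between elastin-rich and visceral muscle-like cells at P7, with 95% intervals. Red marks are called higher, blue lower and grey not called, and members under 30 UMIs are not compared. Tgfb2 is at 3.21, 2.88 and 3.90 in the first 3 panels and at 3.07 in the last, where the 3 receptor genes are on the lower side.

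At P7 a second set of cells stood out among the classes for Tgfb2 and Tgfb3. Elastin-rich muscle-like cells (338 cells, 4.22% of those kept) had Tgfb2 at 329 CPM (300 to 359), Tgfb3 at 144 CPM (126 to 164), Inhba at 82.2 CPM (68.4 to 97.9) and Ltbp1 at 133 CPM (115 to 152). Visceral muscle-like cells (135 cells) had 39.1, 23.2, 39.1 and 64.8 CPM of the same genes. Beside other classes, Inhba was not apart from subepithelial fibroblast-like cells (87.9 CPM), nor Ltbp1 from adventitial fibroblast-like cells (106 CPM). Tgfb1, at 26.3 CPM, lay between neuronal-like (28.4 CPM) and other fibroblast-like cells (24.8 CPM), not apart from either. Against visceral muscle-like cells, 5 of the 10 members were called higher in the elastin-rich set, Tgfb1, Tgfb2, Tgfb3, Inhba and Ltbp1, beside 15.7% of all genes. The other 4 called, Tgfbr1, Tgfbr2, Tgfbr3 and Ltbp4, were lower, beside 11.4%. All 4 ligand genes were thus on the higher side and all 3 receptor genes on the lower side, with a median over the members of 0.51 against 0.06 over all genes.

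The differences were 3.07 (2.56 to 3.63) for Tgfb2, 2.63 (1.96 to 3.39) for Tgfb3 and 1.43 (0.31 to 2.73) for Tgfb1, on the log2 scale. Tgfbr3, the co-receptor, was lower by -1.66 (-2.24 to -1.09), at 28.3 against 89.2 CPM. Tgfbr1 and Tgfbr2 differed by -1.02 (-1.92 to -0.12) and -1.01 (-1.72 to -0.31). The elastin-rich cells held 37.1% (34.5 to 39.7) of all P7 Tgfb2 UMIs, 37.3% (33.4 to 41.4) of those of Tgfb3 and 31.6% (27.1 to 36.5) of those of Inhba. They held 1.32%, 2.03% and 4.18% of those of Tgfbr1, Tgfbr2 and Tgfbr3. Such shares also follow the number and depth of cells: the elastin-rich set had 1521511 UMIs in all and epithelial-like cells 96533598. Epithelial-like cells, 74.3% of those kept, held 84.4%, 60.2% and 19.3% of the UMIs of these 3 receptor genes. At 2500 UMIs per cell, 50% of the elastin-rich cells had a Tgfb2 UMI, against 7.41% of visceral muscle-like cells, from median depths of 4210 and 5547 UMIs. The embryonic libraries had 2 and 5 such cells, so no earlier stage was compared.

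The visceral muscle-like gate at P7 mixed cells, and the values by cluster, looked at after the levels were seen, show where. Of its 135 cells, 85 were in 1 cluster with Actg2 at 13245 CPM, and they had Tgfb2 at 8.39 CPM, Tgfb3 at 5.03 CPM and Tgfbr3 at 43.6 CPM. Another 28 cells carried fibroblast RNA (Dcn 6061 CPM) and had 0 Tgfb2 UMIs, with Tgfbr3 at 286 CPM and Ltbp4 at 415 CPM. A further 15 cells lay in the main elastin-rich cluster, with Tgfb2 at 127 CPM. The fibroblast markers summed to 6904 CPM in the visceral and 3079 CPM in the elastin-rich set. With clusters in place of gated cells the elastin-rich excess was larger for Tgfb2 (4.90) and Tgfb3 (4.69), while Tgfbr3 differed by -0.02 and Ltbp4 by -0.21. Tgfbr1 and Tgfbr2 stayed lower at -0.89 and -1.17, and 6 members were called.

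Ltbp2, the binding protein that does not hold latent TGF-beta, was at 23.0 CPM in the elastin-rich and 23.2 CPM in the visceral set. All 35 of its UMIs in the elastin-rich set were in 27 cells of 1 small cluster (244 CPM, 170 to 339, in 16 of the 27). The 309 cells of the main elastin-rich cluster had 0, which allows up to 2.71 CPM. Those 27 cells also had Eln at 12364 CPM, above 8206 CPM in the 309, with the fibroblast genes Dcn at 3213 CPM and Col3a1 at 5060 CPM. Their whole cluster, 168 cells of which 73.3% of the gated ones were fibroblast-like, held 92 of the 187 Ltbp2 UMIs of the P7 library (49.2%). The equal class means of Ltbp2 thus covered an uneven spread within the elastin-rich set. Tgfb2 did not split this way: it was at 335 CPM (305 to 367) in the 309 cells and 286 CPM (205 to 388) in the 27. Ltbp1 and Ltbp4 were uneven as well. Ltbp1 was at 146 CPM (126 to 168) in the 309 cells and 20.9 CPM (4.31 to 61.1, from 3 UMIs) in the 27. Ltbp4 was at 51.3 CPM (40 to 64.9) and 160 CPM (102 to 241). The intervals of the remaining members overlapped.

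The other pathway lists differed in direction in the elastin-rich set, where 15.7% of all genes were higher and 11.4% lower than in the visceral set. Lrrc32, which encodes GARP, a membrane anchor for latent TGF-beta, was at 122 against 24.4 CPM (log2 2.31), and 3 of 8 activation and storage genes were higher with none lower. The crosslinking enzyme gene Lox was at 147 against 17.1 CPM (log2 3.10) and the microfibril gene Mfap5 at 17.1 against 208 CPM (log2 -3.60), the highest and lowest of a microfibril list in which 4 of 10 were higher and 5 lower. Of 15 response genes, 8 were higher and 3 lower (median 1.02), with Tgfbi, a secreted matrix protein, lowest at 7.89 against 111 CPM. The activin list gave 2 of 3 higher and none lower, led by the antagonist Fstl3 (82.2 against 17.1 CPM, log2 2.26). The SMAD list gave 3 and 2 of 11, the other receptors 3 and 1 of 6 and the proteoglycans 2 and 2 of 5. Of the 16 stress genes 13 were higher and 1 lower (median 1.23). The fibroblast gene Dcn was at 1393 CPM in the visceral and 321 CPM in the elastin-rich set, and values by cluster are not given for these lists. The part of stress genes or of fibroblast RNA in these differences was not tested.

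Within the fibroblast-like cells the ligands were not spread evenly either. Subepithelial fibroblast-like cells, which lie under the epithelium and were gated by Pdgfra and BMP genes among others, had more Tgfb1, Tgfb3 and Inhba than the other fibroblast-like cells at both embryonic stages. Tgfb1 was at 32.8 CPM (28.2 to 37.9) and then 43.4 CPM (36.4 to 51.4), against 10 and 12.0 CPM. Inhba was at 24.4 CPM (20.4 to 28.9) and 53.8 CPM (45.9 to 62.6), against 5.58 and 8.41 CPM. Tgfb3 was at 27.5 and 64.1 CPM against 11.7 and 21.4 CPM. The log2 differences at E17.5 were 1.86 (1.55 to 2.16), 2.68 (2.37 to 2.98) and 1.58 (1.34 to 1.82) for Tgfb1, Inhba and Tgfb3.

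The receptors went the same way: at E17.5 Tgfbr2 was at 106 against 58.6 CPM (log2 0.85, 0.67 to 1.02) and Tgfbr3 at 123 against 62.2 CPM (log2 0.98, 0.81 to 1.14). Tgfbr1 was at 29.1 against 21.3 CPM and was not called. The count was 5 higher and none lower of 10 at E15.5, beside 7.99% and 9.89% of all genes, with Tgfb2 at 14.9 against 9.51 CPM as the fifth. At E17.5 it was 5 higher and 1 lower, beside 10.5% and 11.6%, the lower one being Ltbp2, with 2 UMIs in the subepithelial set. Members' medians were 0.61 and 0.65, against -0.05 and -0.02 for all genes. At P7 there were 30 subepithelial fibroblast-like cells, and 1 of 10 members was called, Ltbp4, lower at 286 against 453 CPM, beside 2.18% of genes, while none was higher, beside 3.76%. At P7 Tgfb3 was at 36.6 against 46.1 CPM, Tgfbr3 at 103 against 129 CPM and Tgfb1 at 29.3 against 24.8 CPM, and the Inhba difference was 0.85 (-0.14 to 1.69). The members' median there was -0.13, against 0.02 for all genes.

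Response genes were also mostly on the subepithelial side at E17.5, with 8 of 15 higher and 3 lower and a median of 0.84. Pmepa1 was at 997 against 218 CPM (log2 2.20), Skil, a SMAD co-repressor, at 130 against 39.0 CPM (log2 1.74) and Postn, a matrix protein, at 155 against 320 CPM, the lowest of the list at -1.05. The activin antagonist Fst was at 81.0 against 3.44 CPM, a log2 difference of 4.55 (4.20 to 4.93), beside the excess of Inhba. Itgb8 was at 22.7 against 4.57 CPM. On the matrix side no microfibril gene was higher and 6 of 12 were lower, among them Fbn1 (161 against 376 CPM) and Fbln5 (-1.78), and 2 of 3 proteoglycans were lower and none higher. At E15.5 the response list was less one-sided, with 4 higher and 3 lower of 15. Stress genes were 2 higher and none lower of 16 at E17.5.

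Adventitial fibroblast-like cells (gated by Cd34, Clec3b and others) differed from the other fibroblast-like cells in the opposite way for Inhba. It had 0 UMIs in 199 adventitial cells at E17.5, where 3 UMIs would be 2.50 CPM, against 8.41 CPM. At P7 it stood at 10.2 against 48.9 CPM (log2 -2.25, -3.20 to -1.44). Tgfb1 was lower too at P7, at 6.30 against 24.8 CPM (log2 -1.97). Tgfb3 was higher at both stages, at 41.6 against 21.4 CPM and 70.1 against 46.1 CPM. In all 3 members were higher and 1 lower of 10 at E17.5, beside 5.22% and 3.6% of all genes, and 1 higher and 2 lower at P7, beside 5.53% and 8.52%. A gate with 1 more marker and a wider lead left none called at E17.5.

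Tgfb1 was highest in a further class at E17.5. There, 65 immune-like cells that had passed the CD45 sort held Tgfb1 at 111 CPM (90.3 to 135), above the 43.4 CPM of the subepithelial set, the next class. Of these cells 33.8% lay next to the gate's cut, and they also held Apoa4, an enterocyte gene, at 516 CPM, the neuronal gene Stmn2 at 175 CPM and Epcam at 79.6 CPM, whose part was not tested. Neuronal-like cells had 4.06, 5.31 and 28.4 CPM (21.9 to 36.1) from E15.5 to P7. The P7 over E17.5 log2 ratio in neuronal-like cells was 2.42 (1.85 to 3.00). In neuronal-like cells 2 of 7 comparable members were called higher at P7 (Tgfb1 and Tgfb3), beside 26.5% of genes, and 4 lower (Tgfb2, Tgfbr1, Tgfbr2 and Ltbp1), beside 11.3%. The stricter gate and a minimum of 100 UMIs each left 3 called in place of 6. Neuronal-like Tgfb2 had been higher at E17.5 than at E15.5, by 0.92 (0.76 to 1.07), one of 3 of 7 members called higher, beside 7.41%, with none lower, beside 4.32%. Of the 16 stress genes 15 were higher and none lower in neuronal-like cells at E17.5 (median 1.26), and 3 were higher and 7 lower at P7. At P7 the 172 neuronal-like cells carried 625 CPM of summed epithelial markers. The part of either in these changes was not tested.

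Epithelial-like cells were low in nearly all members. Against fibroblast-like cells 9 of 10 members were lower in them at E15.5 and all 10 at E17.5 and P7, beside 36.2%, 38.2% and 34.3% of all genes. The exception at E15.5 was Tgfbr1, at 20.7 CPM in epithelial-like and 23.3 CPM in fibroblast-like cells. At P7 epithelial-like Tgfbr1 was at 14.5 CPM (13.8 to 15.3) and Tgfbr2 at 10.7 CPM (10.1 to 11.4), while Tgfb2, Inhba and Ltbp1 were at 0.725, 0.0725 and 0.414 CPM. The fibroblast-like excess at P7 was 2.32-fold for Tgfbr1, 8.24-fold for Tgfb1 and 10.2-fold for Tgfbr2, and reached 249-fold for Ltbp1 and 543-fold for Inhba, the last from 7 epithelial-like UMIs (log2 9.09, 8.01 to 10.42). Within the epithelium 2 of 7 members were called higher at E17.5 than at E15.5 (Tgfb1 and Tgfb2), beside 12.4%. At P7, 3 of 9 were lower than at E17.5 (Tgfb2, Ltbp1 and Ltbp4), beside 14.8%, and none higher, beside 20.1%. Stress genes were 6 higher and none lower of 16 in epithelial-like cells at E17.5, and 11 higher and 1 lower at P7 (median 1.41). Fibroblast markers summed to 165, 174 and 99.8 CPM in these cells, and Fabp7, a glial marker, was at 2.67, 7.97 and 0.155 CPM. The part of stress genes or of RNA from other classes in these values was not tested.

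**Figure D3:**
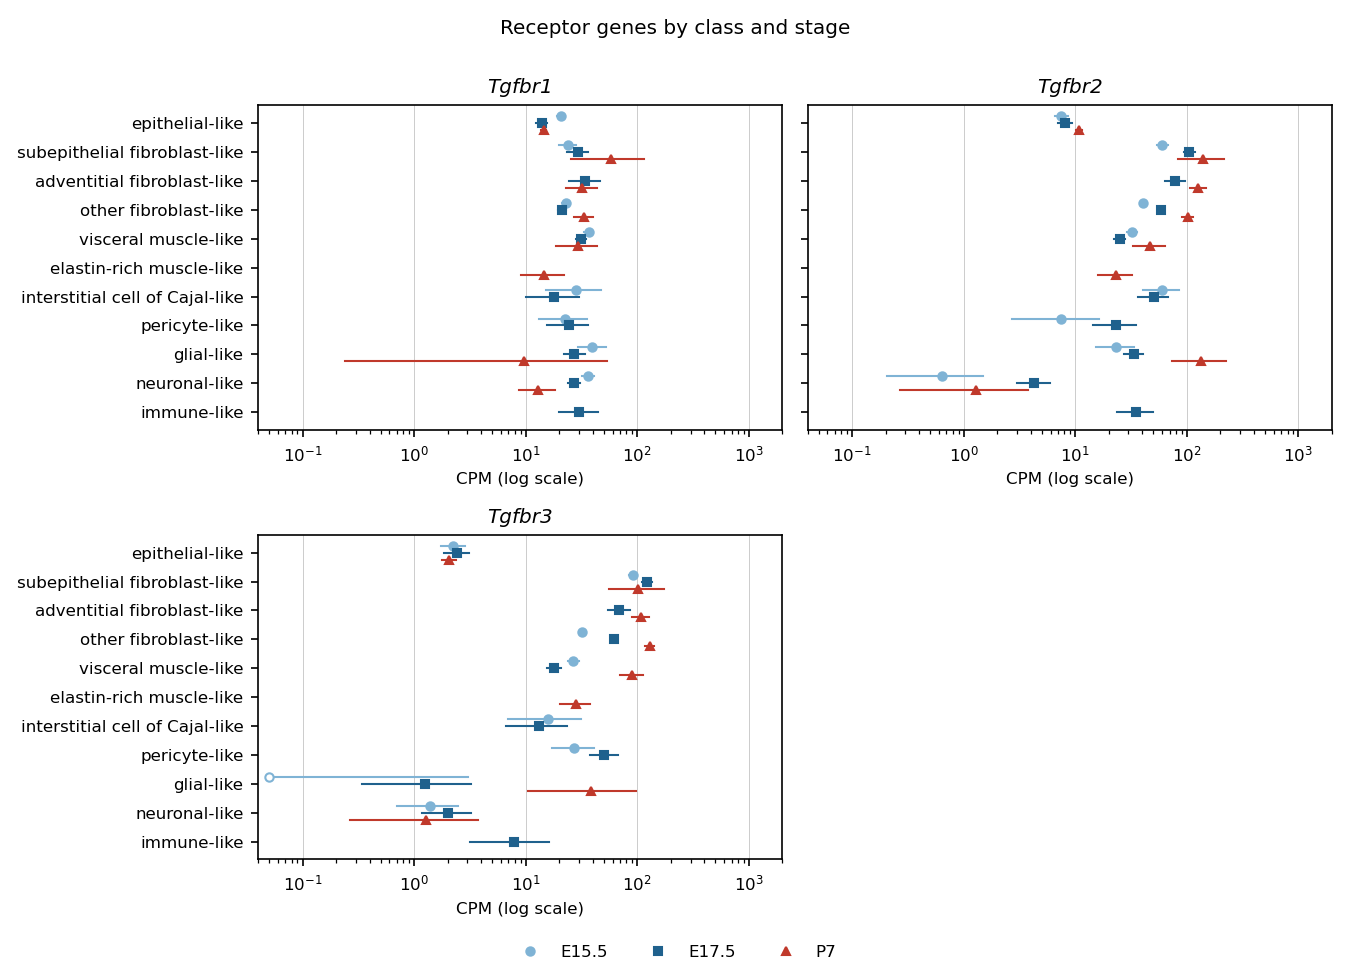
Levels of the 3 receptor genes (CPM, log axis) by cell class and stage, marked as in the plot of ligand genes. Tgfbr1 lies between 20.7 and 39.6 CPM at E15.5 and 13.9 and 34.2 CPM at E17.5. At P7 it lies between 9.57 and 58.6 CPM, from 1 and 8 UMIs. Tgfbr3 is at 91.4, 123 and 103 CPM in the subepithelial set and at 0 and 1.25 CPM in embryonic glial-like cells.

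The receptor genes had different ranges over the classes. Tgfbr1 ranged from 20.7 to 39.6 CPM over the classes at E15.5 and from 13.9 to 34.2 CPM at E17.5. At P7 it ranged from 9.57 CPM in glial-like cells, from 1 UMI, to 58.6 CPM in the subepithelial set, from 8 UMIs. No neighbours in the embryonic orders were apart beyond counting error, but the orders compare neighbours only, so classes further apart can differ. At E15.5 visceral muscle-like cells had 36.6 CPM (401 UMIs) and epithelial-like cells 20.7 CPM (611 UMIs). Tgfbr2 was highest in the subepithelial set and in cells like interstitial cells of Cajal at E15.5 (60.3 and 59.9 CPM), and highest in the subepithelial set at E17.5 (106 CPM). At P7 the subepithelial set (139 CPM, 83.8 to 217) and glial-like cells (134 CPM, 73.2 to 225) were not apart. It was lowest in neuronal-like cells at each stage. Tgfbr3 was highest in the subepithelial set before birth, at 91.4 and 123 CPM, and in other fibroblast-like cells at P7, at 129 CPM (117 to 142). There it was not apart from the adventitial set (107 CPM), nor that from the subepithelial set (103 CPM), nor that from visceral muscle-like cells (89.2 CPM). The ends of this chain, 129 and 89.2 CPM, were not compared with each other. Pericyte-like cells, which wrap small vessels, had 27.2 and 50.6 CPM of Tgfbr3 before birth. Embryonic glial-like cells, the richest in Tgfb2, had 0 and 4 UMIs of this co-receptor (3 UMIs would be 2.48 CPM at E15.5, and the 4 at E17.5 were 1.25 CPM).

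Among the binding protein genes Ltbp4 was a gene of fibroblasts and of cells like interstitial cells of Cajal, Ltbp1 of glia and muscle. In fibroblast-like cells Ltbp4 was at 158 CPM (154 to 162) at E15.5, at 232 CPM (227 to 238) at E17.5 and at 460 CPM (441 to 480) at P7, and it was at 208 and 225 CPM in embryonic cells like interstitial cells of Cajal. Glial-like cells had 8.26 and 11.9 CPM before birth. Visceral muscle-like cells had 109, 89.1 and 137 CPM of Ltbp4 from E15.5 to P7, and embryonic pericyte-like cells 86.7 and 154 CPM. Ltbp1 was at 73.0, 54.5 and 64.8 CPM in visceral muscle-like cells and 79.9 and 45.7 CPM in cells like interstitial cells of Cajal, against 21.7 and 22.6 CPM in fibroblast-like cells before birth. By P7 the fibroblast-like level of Ltbp1 was 103 CPM (94.2 to 113), above the 64.8 CPM of visceral muscle-like cells. Ltbp2 was at 0.991, 4.65 and 9.13 CPM in fibroblast-like and 1.37, 4.98 and 23.2 CPM in visceral muscle-like cells.

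**Figure D4:**
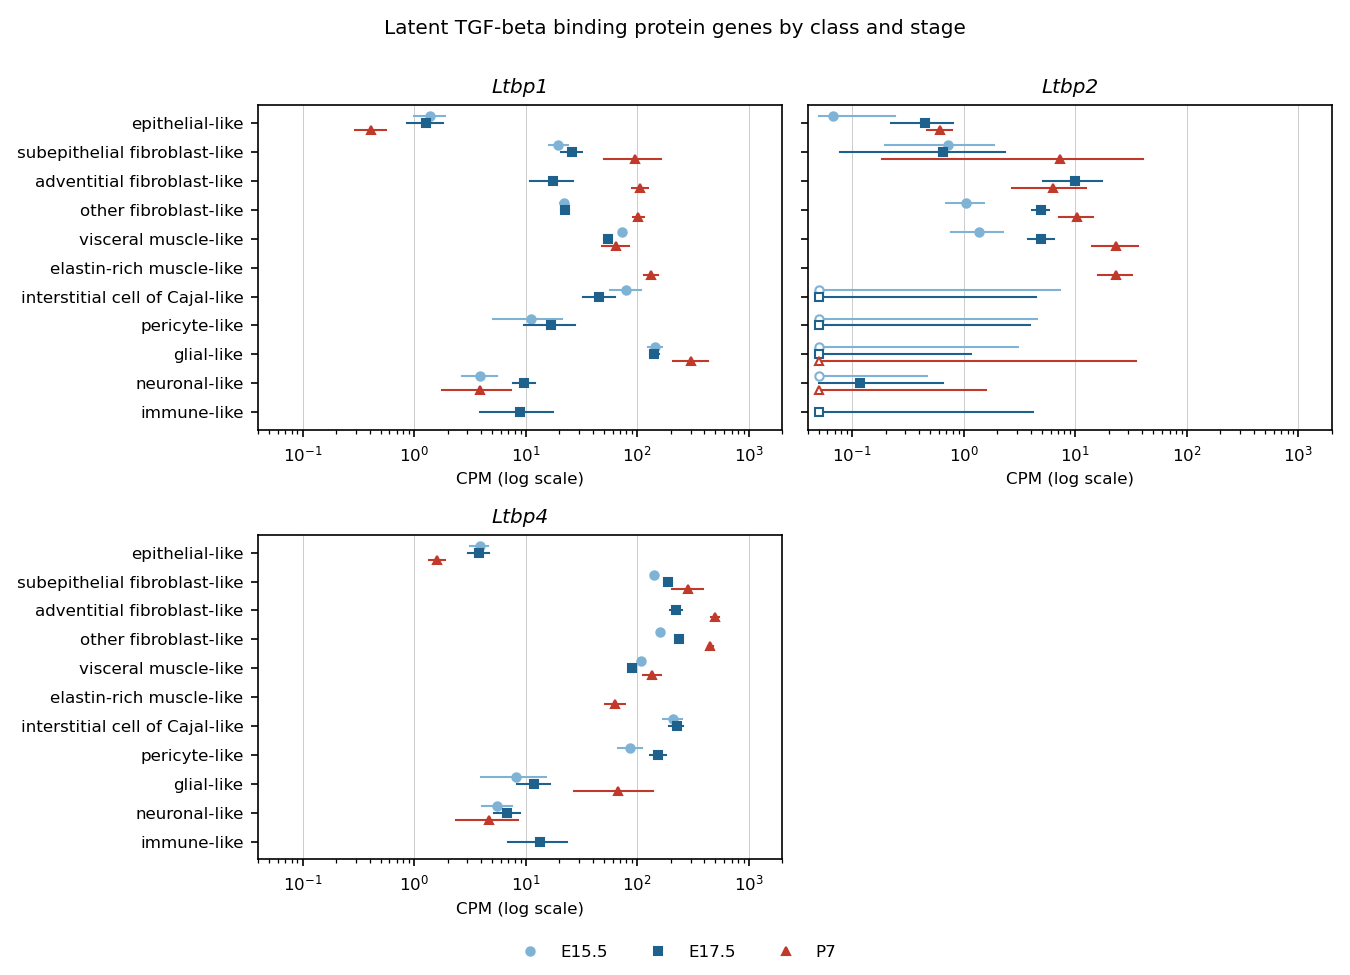
Levels of the 3 latent TGF-beta binding protein genes (CPM, log axis) by cell class and stage, marked as in the plot of ligand genes. Ltbp1 is highest in glial-like cells (144, 142 and 306 CPM), Ltbp4 is low there before birth (8.26 and 11.9 CPM), and Ltbp2 has hollow marks where a class held 0 UMIs.

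Across stages the members were mostly higher later in fibroblast-like cells. Of 10 members, 4 were called higher at E17.5 than at E15.5 (Tgfb2, Tgfb3, Tgfbr3 and Ltbp2) and none lower, beside 13.1% and 10.8% of all genes. At P7, 8 were called higher than at E17.5 and none lower, beside 21.1% and 8.04%, with Tgfb1 and Tgfbr1 the 2 not called. Tgfb2 was at 10.4, 23.2 and 63.1 CPM in E15.5, E17.5 and P7 fibroblast-like cells, and Inhba at 8.76, 12.8 and 39.4 CPM. Tgfb3 was at 14.4, 26.8 and 52.4 CPM, Tgfbr2 at 44.0, 64.3 and 110 CPM and Tgfbr3 at 42.1, 68.9 and 122 CPM. The steepest postnatal ratio was that of Ltbp1, at 2.19 (2.02 to 2.36) on the log2 scale or 4.57-fold, after an embryonic ratio of 0.06 (-0.10 to 0.21). The members' median was 0.56 and then 0.97, against -0.09 and 0.16 over all genes.

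The subsets of fibroblast-like cells showed parts of this pattern. In the subepithelial set 3 of 9 members were higher at E17.5 than at E15.5 (Tgfb3, Inhba and Tgfbr2), beside 9.85% of genes. There 3 of 9 were higher at P7 than at E17.5 (Tgfb2, Ltbp1 and Ltbp4), beside 8.86%. In the adventitial set 6 of 7 were higher at P7, beside 14.6%, with a log2 ratio of 2.60 (1.93 to 3.34) for Ltbp1 and of 1.16 (0.95 to 1.37) for Ltbp4. No member was lower in either set, beside 10.9% and then 4.25% of genes in the subepithelial set and 10.3% in the adventitial set. Stress genes in the subepithelial set were 14 higher and 1 lower of 16 at E17.5 (median 1.67) and 2 and 5 at P7, and in the adventitial set 8 and 2 at P7, and their part was not tested. The adventitial count was 2 under the stricter gate.

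The matrix to which the binding proteins attach differed as well. Of 12 microfibril and elastic fibre genes, 8 were higher in fibroblast-like cells at E17.5 than at E15.5 and none lower (median 1.01). At P7, 6 were higher than at E17.5 and 2 lower (median 0.51): Eln, the elastin gene, was at 108 and then 672 CPM, Mfap5 at 30.2 and then 451 CPM, the highest ratio of the list, and Adamtsl2 at 3.42 and then 1.30 CPM, the lowest. Activation and storage genes were higher in 5 of 9 at P7 with none lower, with Lrrc32 at 22.7 and then 63.3 CPM. Response genes gave 7 higher and 1 lower of 15 at E17.5 and 5 and 3 of 15 at P7. SMAD genes gave 1 and 1 higher of 12 with none lower. Proteoglycans gave 3 of 3 and then 2 of 3 higher, and stress genes 14 higher and 1 lower and then 8 and 2 of 16, whose part was not tested.

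**Figure D5:**
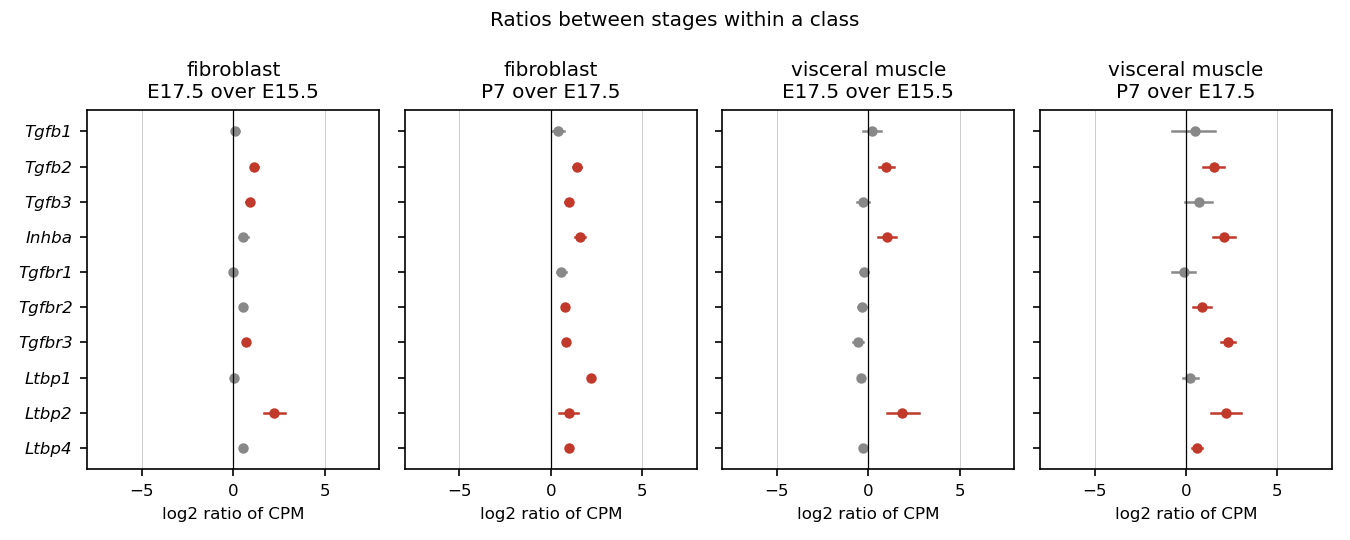
Log2 ratios of CPM for the 10 members between stages in fibroblast-like and visceral muscle-like cells, with 95% intervals. Red marks are called higher, blue lower and grey not called. In fibroblast-like cells at P7, 8 of 10 are called higher, with Ltbp1 furthest at 2.19, and in visceral muscle-like cells at P7 Tgfbr3 is furthest at 2.32.

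Visceral muscle-like cells gave 3 of 10 members higher at E17.5 than at E15.5 (Tgfb2, Inhba and Ltbp2) and none lower, beside 6.99% and 21.9% of all genes. At P7, 6 were higher than at E17.5 and none lower, beside 20% and 4.73%: Tgfb2, Inhba, Tgfbr2, Tgfbr3, Ltbp2 and Ltbp4. Inhba was at 4.56, 9.18 and 39.1 CPM, a postnatal log2 ratio of 2.09 (1.47 to 2.67), and Tgfbr3 at 26.8, 17.9 and 89.2 CPM (2.32, 1.91 to 2.71). Fibroblast markers summed to 2486, 2382 and 6904 CPM in these cells, and stress genes were 14 higher and none lower of 16 at E17.5 (median 1.30) and 2 and 2 at P7. The part of either was not tested. By cluster the postnatal ratios were 1.15 for Inhba, 1.25 for Tgfbr3 and 1.66 for Ltbp2, but 0.02 for Tgfb2 and -0.54 for Ltbp4, so the last 2 depended on which cells were counted as visceral muscle.

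Over the 26 profiles of a class at a stage with 30 or more cells, which share libraries and depth within a stage, the genes nearest to each member are given as a description, with Pearson's r of log2(CPM + 10). Ltbp4 was nearest to Col6a3, Col6a1 and Fbn1 (r = 0.97, 0.97 and 0.965) and Tgfbr3 to Col1a2, Col6a3 and Col3a1 (0.947, 0.936 and 0.934), which are collagen and fibrillin genes, some of them fibroblast markers of the gate. Tgfb3 was nearest to C1qtnf1, Eln and Axl (0.907, 0.898 and 0.888), of which Eln was used to gate the elastin-rich set. Tgfbr2 was nearest to Itgav, Plpp3 and Angptl2 (0.903, 0.9 and 0.889). Inhba was nearest to Ntf3, Podn and Ackr3 (0.898, 0.898 and 0.881) and Ltbp1 to Fxyd1, Wwtr1 and Fzd8 (0.896, 0.883 and 0.86). Tgfb2 was nearest to Tbx3os1, Vgll3 and 2810468N07Rik (0.875, 0.87 and 0.864), each highest in glial-like cells. Ltbp2 was nearest to Calhm5, Mamdc2 and Anxa1 (0.919, 0.902 and 0.863), and Tgfb1 to Gpsm3, Tcf7 and Pik3cg (0.83, 0.798 and 0.787). Tgfbr1 had the lowest values, with Zup1, Yeats2 and Rbpj (0.757, 0.74 and 0.728). None of the 3 genes nearest to Tgfb2 or to Tgfb3 stayed among the 3 nearest with a pseudocount of 1.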

How the data were processed

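The deposited matrices hold whole UMI counts for each gene in each cell, not normalized, per the file headers and the values. The submitters' processing notes name Cell Ranger 7.2.0 and the builds mm10 and GRCm38, and whether counting used the strand is not given in the sources used here. Tgfb3 is overlapped on the opposite strand by Ttll5 and Gm48008, and Ltbp2 by D030025P21Rik. The barcode names are identical for the 3 libraries and were not used. The 10 members and all gene lists were chosen with earlier results of these data known.

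Doublets were called per library with Scrublet in scanpy 1.11.5 (expected rate 6%) and removed: 243, 453 and 389 cells (2.88%, 3.91% and 4.64%). Each cell of at least 2500 UMIs was thinned to that number (shallower cells got no class) and given the class with the largest share of its markers detected, with at least 3 markers and a lead over the next. Muscle was split by summed marker UMIs (at least 3, and for the elastin-rich set at least 3 of Eln), a scoring chosen after seeing the data. A total of 552, 1308 and 340 kept cells had no class. The class totals were summed over raw counts and scaled to CPM, and levels were not compared between genes, since 3′ counts carry no length. Intervals are exact (Poisson, Clopper-Pearson, conditional binomial). The text names every member, the 3 genes nearest to it, and from each of 8 pathway lists counts with the highest, lowest or class-leading genes. Some genes stand in more than 1 list (Skil, Smad7, Pmepa1, Ldlrad4 and Junb), and gate markers of a compared class were left out of its list counts. Alternatives were Leiden clusters (leidenalg 0.10.2) named by the markers, doublets kept, mean CPM per cell, a stricter gate, other UMI minimums, scaling by the median ratio of genes and, chosen after seeing the data, leaving out clusters led by another class's markers. Python 3.11.15, numpy 2.4.6 and scipy 1.17.1 were used, and the counting was tested on simulated data.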

Additional observations from a re-analysis of the deposited data

How the results depend on the processing

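Of 25 comparisons, the number of members called stayed within 1.5 times under clusters in 20 of 21, doublets kept in 25, the stricter gate in 20, no minimum of UMIs in 24, a minimum of 100 UMIs in 22, median-ratio scaling in 23, and without clusters led by another class's markers in 24. The stricter gate gave 3 in place of 6 for neuronal-like P7 over E17.5, 2 in place of 6 for adventitial P7 over E17.5, 0 in place of 4 for adventitial over other fibroblast-like cells at E17.5, 0 in place of 1 for subepithelial over other at P7, and 2 in place of 0 for glial-like E17.5 over E15.5. In that glial-like comparison clusters gave 3, median-ratio scaling 2 and leaving out clusters led by other markers 1. A minimum of 100 UMIs gave 1 in place of 3 for subepithelial P7 over E17.5, 3 for neuronal-like P7 over E17.5 and 1 in place of 2 for glial-like over neuronal-like cells at P7, where no minimum gave 5. Median-ratio scaling gave 7 in place of 4 for fibroblast-like E17.5 over E15.5. The number called does not show which members were called. With clusters, Tgfbr3 and Ltbp4 were no longer called between elastin-rich and visceral muscle-like cells. Among single values of the members, 50 of 174 log2 ratios and 50 of 240 CPM levels were counted as moved with clusters. With the stricter gate 23 of 210 and 35 of 290 moved, and with doublets kept 17 of 210 and 22 of 290. The Ltbp4 ratio of visceral muscle-like cells, P7 over E17.5, changed sign with clusters, at -0.54. A higher minimum compares fewer genes by construction, and for the rest the cause was not tested.

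The median log2 ratio of genes with 100 UMIs in both groups was -0.57 for glial-like P7 over E17.5 and 0.69 for glial-like over neuronal-like cells at P7, where Tgfb2 was 0.52 and 3.21 after scaling, and between -0.26 and 0.34 in the other comparisons. Glial-like cells at P7 (31 cells, 104515 UMIs) and subepithelial fibroblast-like cells at P7 (30 cells) limit what depth can separate. No paired analysis was possible because each stage is 1 library and the labels give no replicate numbers.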

Other observations

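A few genes of the pathway lists had their highest level in epithelial-like, immune-like or neuronal-like cells. Itgb6, an integrin subunit that with alpha-v releases latent TGF-beta, was highest in epithelial-like cells at each stage, at 11.3, 15.0 and 21.8 CPM, as was Acvr1c, an activin-type receptor gene, at 10.4, 20 and 33.3 CPM. Nrros, which anchors latent TGF-beta 1 on myeloid cells, was highest in the immune-like cells at E17.5, at 38.1 CPM, beside their Tgfb1 of 111 CPM. Fst was highest in neuronal-like cells at P7, at 105 CPM. These values were not compared between stages by any test.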
